A study of Mus musculus with 2 samples.

Results

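The mouse beta-globin cluster and the DNA upstream of it held 11 accessible regions in the main ATAC-seq peak list of CFU-E, erythroid progenitors that depend on erythropoietin and are committed to making red cells. ATAC-seq measures accessibility through the Tn5 transposase, which inserts adapters mainly where DNA is free of nucleosomes. All peak records that overlapped the window chr7:103790000-103900000 (mm10, 110 kb) were taken, and records that overlapped or touched were merged into 1 region, which gave 11 of the 24394 regions and 21 of the 50003 records of the list. The 5 genes of the cluster, from Hbb-bt to Hbb-y, were described beside them. The cells were primary CFU-E of adult male C57BL/6J mice aged 5 to 6 weeks, with no treatment or modified allele named in the labels. There was 1 group of 2 libraries of 50000 cells each, numbered as biological replicates 1 and 2, and both carried 1 donor identifier. The labels do not show that the libraries came from separate animals, and they were treated as 1 sample. No value therefore has an SD, and no test between groups exists.

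The beta-globin genes encode the beta-like chains of hemoglobin and are known to be switched on in turn during development. Hbb-y and Hbb-bh1 are the embryonic genes, expressed in primitive red cells of the yolk sac, while Hbb-bs and Hbb-bt are the adult genes. The locus control region is a row of DNase hypersensitive sites upstream of Hbb-y that raises the expression of the linked genes in erythroid cells. Its sites are known for binding motifs of GATA1 with TAL1, of NF-E2, and of KLF1, the last of which also binds the CACCC box of the adult promoters. Further DNase hypersensitive sites flank the cluster on its far side, and olfactory receptor genes surround it. In GENCODE M21 the genes are Hbb-bt (chr7:103812524-103813996), Hbb-bs (chr7:103826534-103828096), Hbb-bh2 (chr7:103839124-103840520), Hbb-bh1 (chr7:103841637-103843164) and Hbb-y (chr7:103851749-103853216). All 5 lie on the minus strand, so upstream means toward higher coordinates.

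The sequences below are the DNA in which the accessible summits of the row upstream of Hbb-y lay, together with the strongest region on the opposite flank. They are read 5′ to 3′ on the minus strand, the strand of the globin genes, from GRCm38.p6, and span 75 bp to each side of the strongest summit. Regions are numbered from 1 to 11 by increasing coordinate. The stretches are chr7:103793129-103793279 for region 1, chr7:103859236-103859386 for region 7, chr7:103861066-103861216 for region 8, chr7:103865836-103865986 for region 9, chr7:103870809-103870959 for region 10 and chr7:103877228-103877378 for region 11. Capitals mark matches on either strand to the GATA words (GATA with A or T before it and A or G after it), to the CACCC-type word CCNCNCCC, to TGANTCA, to the NF-E2 consensus that contains it, and to CCAAT.
region 1: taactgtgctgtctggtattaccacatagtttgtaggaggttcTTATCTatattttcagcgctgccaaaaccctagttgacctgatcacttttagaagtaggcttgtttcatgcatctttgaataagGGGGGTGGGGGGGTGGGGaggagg
region 7: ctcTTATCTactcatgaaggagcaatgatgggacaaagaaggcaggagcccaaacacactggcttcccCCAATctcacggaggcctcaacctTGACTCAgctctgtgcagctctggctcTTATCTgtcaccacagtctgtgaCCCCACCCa
region 8: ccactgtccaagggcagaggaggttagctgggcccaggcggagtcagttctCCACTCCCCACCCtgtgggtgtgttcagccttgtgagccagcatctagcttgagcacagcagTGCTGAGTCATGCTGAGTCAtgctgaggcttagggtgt
region 9: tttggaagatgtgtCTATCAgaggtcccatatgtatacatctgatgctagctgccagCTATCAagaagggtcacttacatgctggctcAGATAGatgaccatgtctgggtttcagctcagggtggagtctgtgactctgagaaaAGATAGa
region 10: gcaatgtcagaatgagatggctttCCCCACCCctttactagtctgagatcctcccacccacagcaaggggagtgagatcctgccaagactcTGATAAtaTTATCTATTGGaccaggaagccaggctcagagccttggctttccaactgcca
region 11: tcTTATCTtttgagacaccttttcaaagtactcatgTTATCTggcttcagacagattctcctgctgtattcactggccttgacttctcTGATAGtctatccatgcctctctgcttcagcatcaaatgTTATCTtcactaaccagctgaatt

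Promoter sequences are shown to set genes with an accessible promoter beside genes without one. They hold the 250 bases before the transcription start from RefSeq (GRCm38.p6, minus strand), with capitals as above. The promoter table used here holds 4 of the 5 genes, at chr7:103813924-103814173, chr7:103827929-103828178, chr7:103840522-103840771 and chr7:103853208-103853457. Hbb-bh1 is named only.
Hbb-bt promoter: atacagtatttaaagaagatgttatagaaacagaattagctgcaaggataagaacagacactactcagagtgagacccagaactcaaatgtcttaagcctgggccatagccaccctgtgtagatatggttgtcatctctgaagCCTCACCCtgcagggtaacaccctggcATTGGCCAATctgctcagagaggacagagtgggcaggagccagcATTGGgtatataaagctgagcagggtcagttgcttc
Hbb-bs promoter: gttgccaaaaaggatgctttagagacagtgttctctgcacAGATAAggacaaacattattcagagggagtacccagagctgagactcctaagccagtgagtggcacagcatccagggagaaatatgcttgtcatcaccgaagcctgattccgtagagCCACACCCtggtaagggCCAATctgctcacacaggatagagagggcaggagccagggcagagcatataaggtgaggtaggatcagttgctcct
Hbb-bh2 promoter: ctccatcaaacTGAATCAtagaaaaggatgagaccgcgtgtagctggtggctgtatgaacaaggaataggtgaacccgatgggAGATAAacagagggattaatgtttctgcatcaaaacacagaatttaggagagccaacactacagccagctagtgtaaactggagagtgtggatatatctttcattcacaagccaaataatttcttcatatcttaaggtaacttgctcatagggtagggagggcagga
Hbb-y promoter: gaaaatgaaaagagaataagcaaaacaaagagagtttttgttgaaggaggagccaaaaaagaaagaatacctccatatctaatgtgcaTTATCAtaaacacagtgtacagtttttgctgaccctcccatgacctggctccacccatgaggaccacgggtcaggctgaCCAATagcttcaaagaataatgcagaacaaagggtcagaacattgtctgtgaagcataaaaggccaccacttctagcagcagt

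The locus was marked by a row of 5 regions upstream of Hbb-y, by the 2 adult promoters and by 4 regions on the downstream side of an adult gene. Of these 4, region 5 overlapped the 3′ end of Hbb-bs, with its summit between the 2 adult genes. The 3 genes Hbb-bh2, Hbb-bh1 and Hbb-y lay in an interval of 31.3 kb between the summits of regions 6 and 7 in which the series list had no other region. A total of 9 regions were distal, meaning that their midpoint lay more than 1 kb from any annotated transcription start, and 2 were of the promoter class. Regions covered 7.10% of the window. Across the genome, 201 of 24767 adjoining windows of the same length, or 0.812%, held 11 regions or more, while 70.6% held none. The window was set to hold the genes and the upstream control region, and the members were chosen with earlier results of these data known. These shares describe the window and are not a test.

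**Figure D1:**
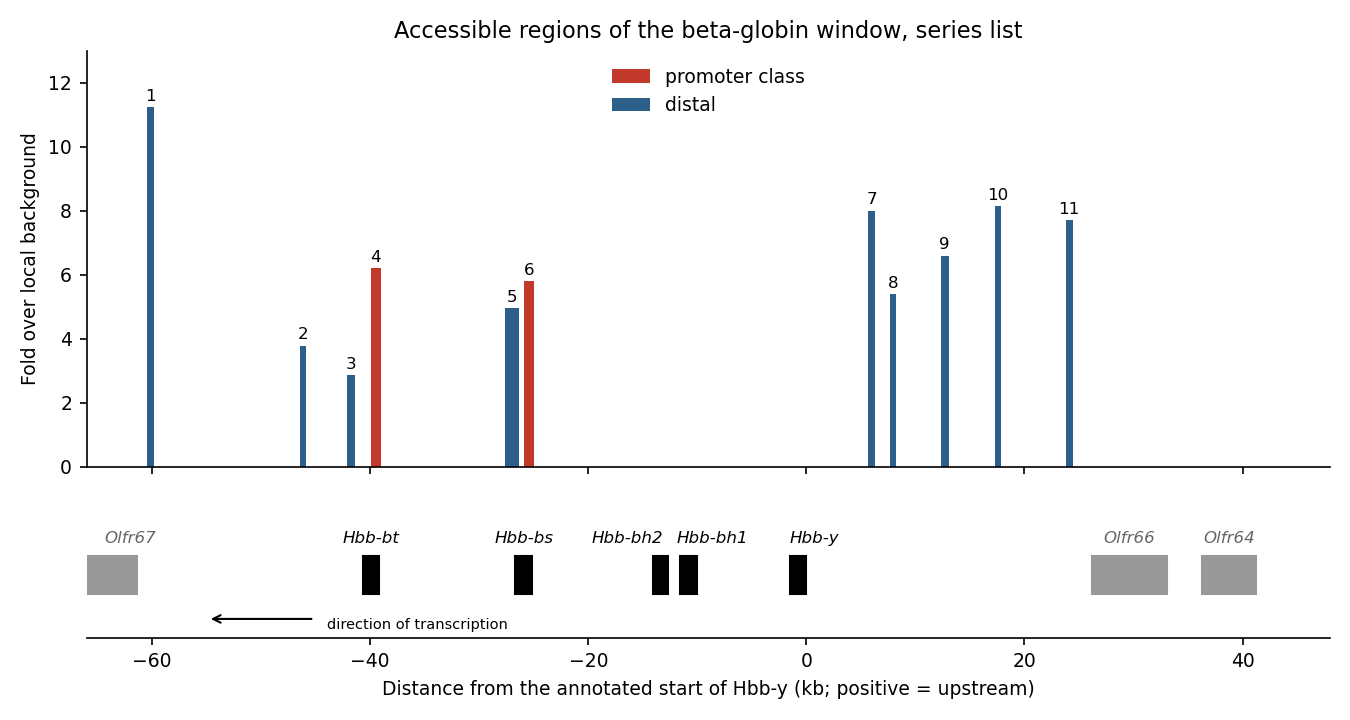
Fold over local background (y axis) of the 11 regions of the series list against distance from the annotated start of Hbb-y in kb (x axis), with each bar drawn at the position of its region and genes as boxes below. Bars 7 to 11 form the row upstream of Hbb-y, bars 4 and 6 stand at the starts of Hbb-bt and Hbb-bs, and no bar stands over Hbb-bh2, Hbb-bh1 or Hbb-y.

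Both adult genes had an accessible promoter, and the embryonic genes did not. A gene was counted when a region lay within 1 kb of any annotated start. Hbb-bt, the adult gene farthest from the control region, was covered by region 4 (chr7:103813279-103814164). Its fold over local background, which is the ratio given by the authors' peak caller, was 5.95 in the list of replicate 1, 6.22 in that of replicate 2 and 6.20 on both libraries together. Both libraries thus gave a value near 6. The summit of region 4 lay 80 bp upstream of the RefSeq start and 7 bp upstream of the GENCODE start.

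Hbb-bs, the other adult gene, was covered by region 6 (chr7:103827317-103828219), with a fold of 5.74 in replicate 1, 5.73 in replicate 2 and 5.81 on both together. The libraries differed by less for Hbb-bs than for Hbb-bt. Its summit lay 88 bp upstream of the RefSeq start, within a UTR exon of the GENCODE model. In the series list the 2 promoters had −log10 p values of 118 for Hbb-bt and 123 for Hbb-bs, as the peak caller gave them. The 2 genes are near copies of each other, identical at 96.5% of 1396 aligned bases, but their 250 upstream bases were identical at 71.7% of 244 aligned bases. The 250 bases before each start held no 50-base stretch that occurs elsewhere in the assembled chromosomes. Over the whole of region 4, 43.6% of 50-base stretches occurred once in the assembled chromosomes, and 48.1% did over region 6. Reads that fall on the shared stretches could come from either gene, and the part of this in the folds was not tested.

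The embryonic genes had no region at their starts in any of the 13 lists. For Hbb-y, the nearest region of the series list began 5.70 kb from the start, and that of the less strict overlap list 1.51 kb from it. For Hbb-bh1 the distances were 14.9 kb in the series list and 2.49 kb in the overlap list. Hbb-bh2, a beta-like gene between the adult and embryonic pairs, lay between these cases. It had a record at its start in the overlap list, with a fold of 4.47 and a −log10 p of 12.1, and its summit lay 21 bp inside the GENCODE gene. The same locus had a fold of 3.74 in the pseudoreplicated list of replicate 1 and of 4.07 in that of replicate 2, so both libraries carried it. Its −log10 IDR was 1.14 in the ranked list behind the series list, where the threshold of 0.05 on the IDR, the irreproducible discovery rate, left it out.

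The count for the cluster was therefore 2 of 5 genes in the series list, the conservative list and the list of each library, and 3 of 5 in the overlap list. Among 21938 protein-coding genes, 45.8% had an accessible promoter in the series list, 45.7% in the conservative list, 43.5% in replicate 1, 42.6% in replicate 2 and 52.3% in the overlap list. The share of the cluster was close to these, so the count is not a result about its genes; which genes were covered is what the lists show. Olfactory receptor genes gave the lower reference: 6 of 1135, or 0.529%, had a region within 1 kb of a start. Olfr67 was one of them because region 1 began 955 bp from its start, and Olfr66 and Olfr64, the other receptor genes of the window, had none.

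Promoter motifs differed between the genes in the 250 bases shown above. A CCNCNCCC match was found in Hbb-bt and Hbb-bs and not in Hbb-bh2 or Hbb-y, and 45.6% of 27025 RefSeq promoters hold one. CCNCNCCC asks for more letters than CACCC alone, and the Hbb-y stretch holds CACCC, within CTCCACCC, outside that pattern. In Hbb-bt the CCNCNCCC match began 107 bases before the RefSeq start, and in Hbb-bs 93 bases before it. CCAAT, the word bound by NF-Y, matched 3 times in Hbb-bt, once in Hbb-bs and once in Hbb-y, against 34.5% of promoters with a match. A GATA word was found in Hbb-bs, Hbb-bh2 and Hbb-y and not in Hbb-bt, against 27.1% of promoters. Around the accessible summits themselves, the CCNCNCCC match of Hbb-bs lay across the summit, and that of Hbb-bt ended 20 bp before it.

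The row upstream of Hbb-y consisted of regions 7 to 11, with summits 6.095, 7.925, 12.695, 17.668 and 24.087 kb upstream of the GENCODE start. All 5 lay in intergenic DNA, and the gaps between neighbouring summits were 1.83, 4.77, 4.97 and 6.42 kb. Which numbered hypersensitive site each one corresponds to is not given in the sources used here. Region 7 (chr7:103858915-103859534) had a fold of 7.51 in replicate 1 and 8.16 in replicate 2. It had the highest −log10 p of the window in the series list, 151, with a fold of 8.01. Of the matched regions it was the one whose rank differed most between the libraries, at the 39.9th percentile by fold in replicate 1 and the 47.8th in replicate 2.

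Region 8 (chr7:103860879-103861444) had a fold of 5.14 in replicate 1, 5.45 in replicate 2 and 5.39 on both, the lowest of the row. It was the only region of the 5 without a GATA word within 100 bp of a summit. Instead it held 2 adjoining matches to the NF-E2 consensus on the strand of the genes, visible above as 1 run of capitals, which began 38 and 48 bp downstream of the summit on the globin strand. A tandem pair of NF-E2 sites is a textbook feature of the second hypersensitive site of the control region. Among 12040 distal regions, 0.282% held 2 or more NF-E2 matches around the strongest summit. This multiple was singled out after the matches had been seen. Region 8 also held 2 overlapping CCNCNCCC matches on the other side of the summit.

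Region 9 (chr7:103865543-103866258) had a fold of 6.17 in replicate 1, 6.58 in replicate 2 and 6.59 on both. It held 4 GATA words, spread from 61 bp before to 74 bp after the summit, and none of the other words printed in capitals. Region 10 (chr7:103870517-103871068) had a fold of 7.90 in each library and 8.14 on both. On both libraries together and in replicate 1 this was the highest of the row, while in replicate 2 region 7 was higher, at 8.16. It held 2 GATA words in opposite orientation 2 bp apart, each with a CTG placed 7 to 9 bases before it, the spacing known for sites bound by GATA1 with TAL1. Region 11 (chr7:103876994-103877653), the farthest of the row, had a fold of 7.58 in replicate 1, 7.81 in replicate 2 and 7.70 on both. Around its strongest summit it held 4 GATA words, of which 2 had the CTG at that spacing. Over all distal regions, 0.723% held 4 or more GATA words around the strongest summit and 1.12% held 2 or more CTG-GATA pairs. These multiples were singled out after the matches had been seen.

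**Figure D2:**
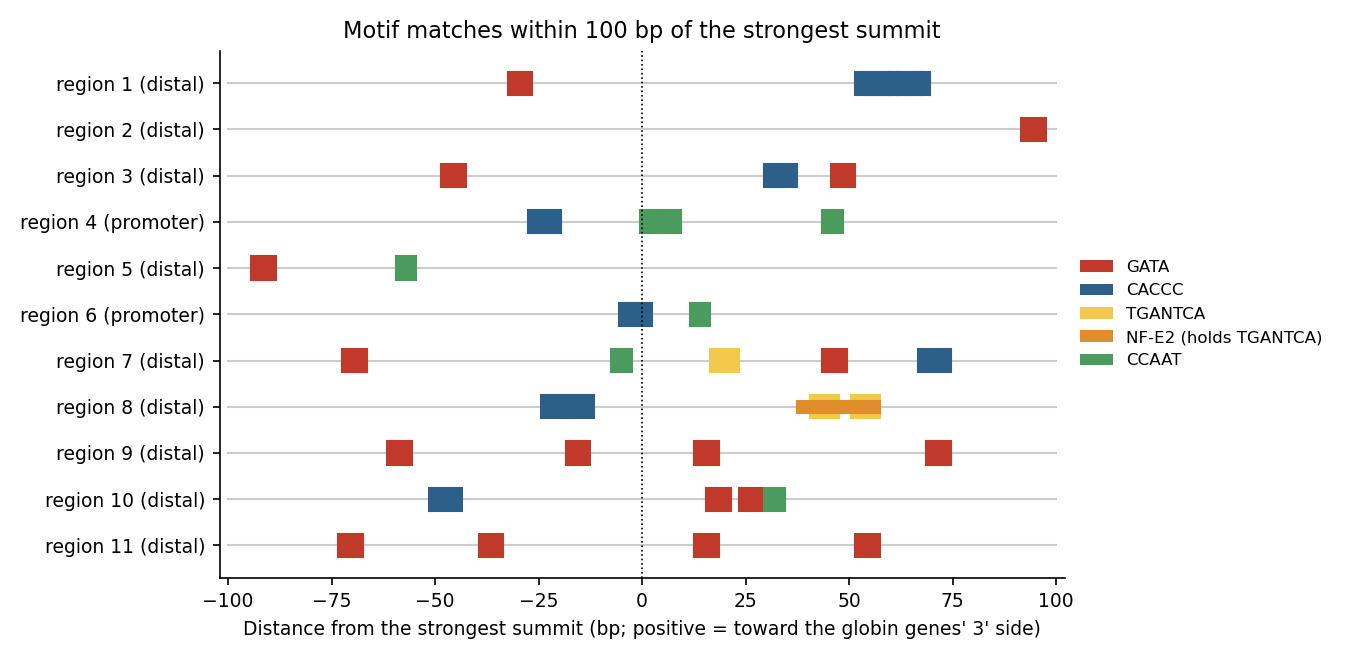
Matches to 5 motifs (coloured boxes) within 100 bp of the strongest summit of each region, 1 region per row, with distance from the summit in bp on the x axis and positive values toward the 3′ side of the globin genes. Regions 9 and 11 carry 4 GATA words each, region 8 carries the 2 NF-E2 matches and no GATA word, and the CCAAT and CACCC-type matches of regions 4 and 6 lie within 50 bp of the summit.

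The regions on the downstream side were less uniform. Region 1 (chr7:103792776-103793395), in intergenic DNA 1383 bp upstream of the start of Olfr67 and 20.8 kb downstream of the start of Hbb-bt, had the highest fold of the window, 9.91 in replicate 1, 9.46 in replicate 2 and 11.2 on both. Its −log10 p was lower than that of 8 other regions, at 25.8 in replicate 1, 23.8 in replicate 2 and 47.5 on both. It held 4 overlapping CCNCNCCC matches in a run of G on the strand shown, and 1 GATA word with a CTG at the pair spacing. Region 5 (chr7:103825545-103826830) joined 4 records, overlapped the 3′ end of Hbb-bs and had its strongest summit 1.67 kb downstream of the nearest annotated start. Its fold was 4.85 in replicate 1 and 4.96 in replicate 2, and 94.3% of its 50-base stretches occurred once in the assembled chromosomes.

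Regions 2 and 3 were the weakest. Region 2 (chr7:103806880-103807194), 6.91 kb downstream of the start of Hbb-bt, was in neither thresholded library list. In the pseudoreplicated lists it had a fold of 3.73 in replicate 1 and 3.54 in replicate 2. Region 3 (chr7:103811136-103811818), 2.34 kb downstream of the same start, was in the thresholded list of replicate 2, with a fold of 2.72, and not in that of replicate 1. The pseudoreplicated list of replicate 1 gave it a fold of 2.89. In the ranked list of each library its −log10 IDR was 0.852 in replicate 1 and 1.48 in replicate 2. Regions 1, 2, 3 and 7 to 11 held no 50-base stretch found elsewhere in the assembled chromosomes.

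The remaining 9 of the 11 regions, or 81.8%, were in the thresholded lists of both libraries, against 65.3% of all regions of the series list. Where both lists had the region, its percentile by fold differed by a median of 2.94 points and at most 7.89, against a median of 4.43 over all regions. Summits lay a median of 8 bp and at most 25 bp apart, against a median of 7 bp over all regions. These values describe 11 regions of 1 locus and were not tested, and agreement between libraries whose independence is unknown does not measure biological spread.

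**Figure D3:**
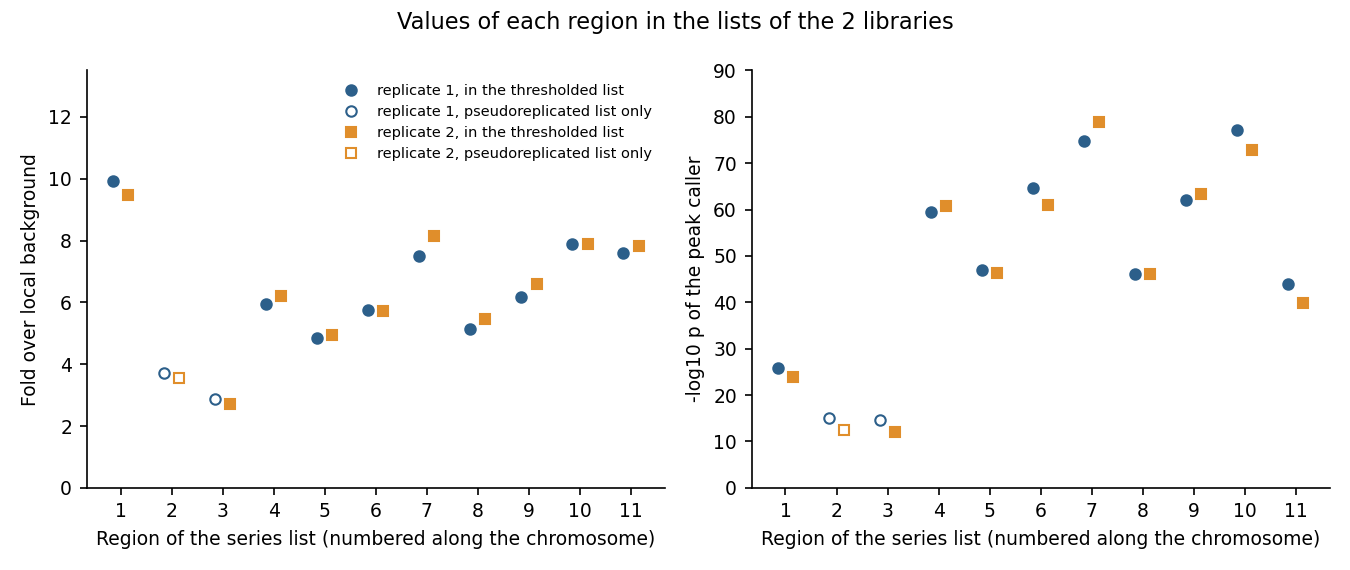
Fold over local background (left) and −log10 p (right) of the 11 regions in the lists of replicate 1 (circles) and replicate 2 (squares). Open symbols mark regions 2 and 3 where they were in the pseudoreplicated list of a library and not in its thresholded list, and the libraries give nearly the same order of regions.

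The rank of the locus depended on the measure. By fold, 4 of the 11 regions were above the median of all regions in the series list, and the median of the 11 lay at the 34.7th percentile. By −log10 p, 8 of 11 were above the median, and their median lay at the 65.1st percentile. Region 1 stood at the 78.9th percentile by fold and the 44.6th by −log10 p, and region 7 at the 54.3rd and the 85.0th. Among distal regions alone, the 5 regions upstream of Hbb-y lay between the 31.1st and 70.6th percentiles by fold and between the 78.4th and 95.9th by −log10 p. Among all regions, the adult promoters lay at the 34.7th percentile by fold for Hbb-bt and the 30.2nd for Hbb-bs. Among regions of the promoter class alone, they lay at the 24.8th and 21.8th by fold and the 59.4th and 61.7th by −log10 p. Both measures are the authors' own, and why they order the regions differently was not tested.

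The alpha-globin window, of the same length (chr11:32215000-32325000), held 18 regions, of which 8 were distal. Its median fold was 6.40 and its median −log10 p was 70.8, beside 6.20 and 90.8 for the beta-globin window. The adult alpha genes also had accessible promoters. Hba-a1 had a fold of 4.24 in replicate 1, 4.58 in replicate 2 and 4.37 on both, and Hba-a2 had 4.86, 5.17 and 5.08. The embryonic gene Hba-x had no promoter region in the series, overlap and older lists or in the thresholded list of either library, as for Hbb-y and Hbb-bh1. The 4 adult globin promoters were all below the median fold of the series list and above its median −log10 p. Bases G and C made up a median of 42.1% of the beta-globin regions and 52.3% of the alpha-globin regions. No test compares the windows.

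**Figure D4:**
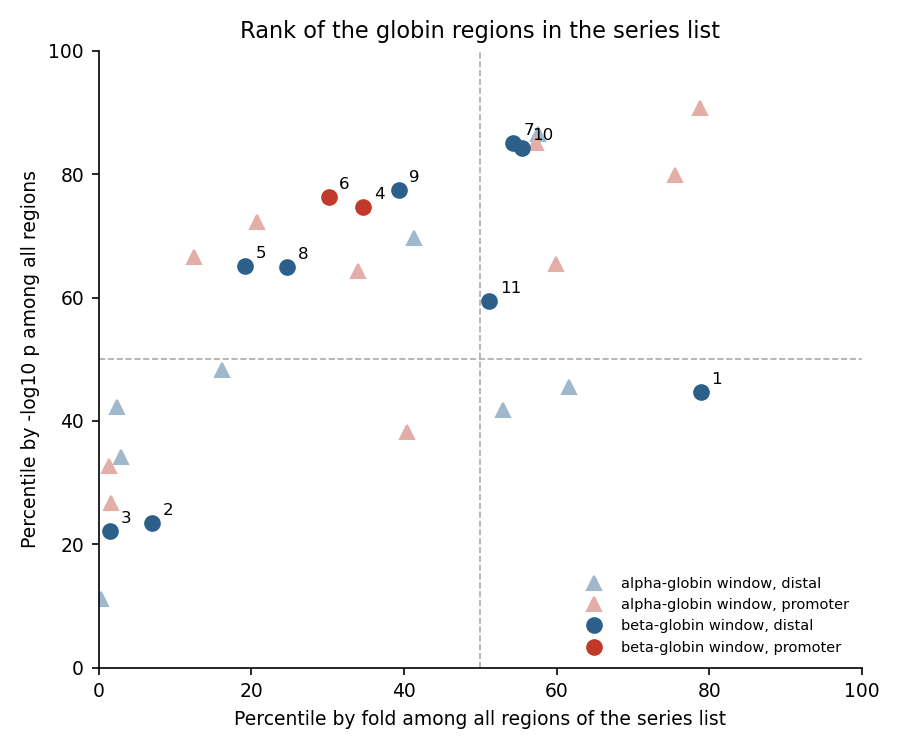
Percentile by fold (x axis) and by −log10 p (y axis) among the 24394 regions of the series list, for the 11 numbered regions of the beta-globin window (circles) and the 18 of the alpha-globin window (triangles), with dashed lines at the medians. Regions 4, 5, 6, 8 and 9 lie left of the vertical line and above the horizontal one, regions 7, 10 and 11 lie at the upper right, and region 1 lies at the lower right.

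Motif counts over the 9 distal regions were read against all 12040 distal regions of the series list, searching both strands within 100 bp of any summit. GATA words were found in 8 of 9, against 57.1% of all distal regions and 4 of 8 in the alpha-globin window. CTG-GATA pairs were found in 5 of 9, against 17.8%, and CCNCNCCC in 5 of 9, against 38.9%. CCAAT was found in 6 of 9, against 31.4%. Within 100 bp of the strongest summit alone, CCAAT was found in 3 of 9, against 21.5%, CTG-GATA pairs in 4 of 9, against 15.8%, GATA words in 8 of 9, against 49.8%, and CCNCNCCC in 5 of 9, against 30.7%. The remaining counts are again within 100 bp of any summit. TGANTCA was found in 2 of 9, regions 7 and 8, against 12.7%, and the NF-E2 consensus in region 8, against 2.91%. The CTCF consensus matched none of the 11 regions, against 12.02% of all distal regions, which says that these letters are not in the windows searched and nothing about the factor. The E-box CANNTG, a word that TAL1 and its partners are known to bind, was found in 7 of 9, against 81.2%. Searched length grows with the number of summits, from 201 bp to 804 bp in these regions, and a match is a description of the sequence and not a measured site. Bases G and C made up a median of 42.1% of the 11 regions of the window and 49.5% of all distal regions. The part of base composition in the counts was not tested.

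Weaker loci filled in between these regions in the other lists. Over the 12 lists of the current processing the window held 19 loci, of which 9 were in all 12, 11 were in the series list and 8 were not. The one with the highest −log10 p, 23.9, lay 1.65 kb upstream of Hbb-y (chr7:103854725-103855094), with a fold of 3.97 on both libraries, 4.24 in the pseudoreplicated list of replicate 1 and 3.48 in that of replicate 2. It was in the conservative list, with a score of 784, and not in the series list, whose lowest score is 540. In the ranked list behind the series list its score was 475. A locus 3.45 kb downstream of the start of Hbb-bt was also in the conservative list and not in the series list, with a fold of 2.35. It had a record in replicate 2 and none in the lists of replicate 1. The others were a pair at Hbb-bh2 and loci 6.69, 8.53, 20.01 and 21.4 kb upstream of Hbb-y, with folds from 1.90 at the locus 8.53 kb upstream to 4.47 at the start of Hbb-bh2.

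**Figure D5:**
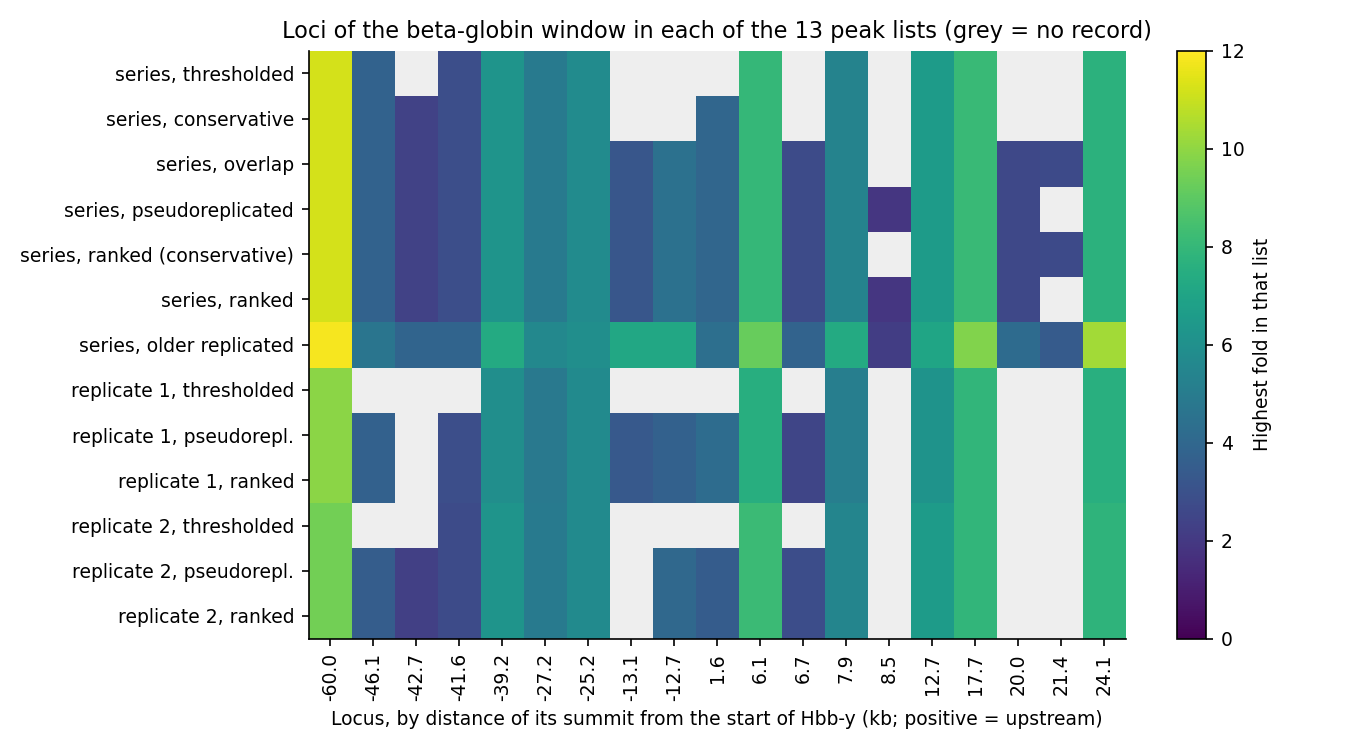
Highest fold (colour) of each of the 19 loci (columns, by distance from the start of Hbb-y in kb) in each of the 13 peak lists (rows), with grey where a list had no record. A region of the older list that spans neighbouring loci gives its highest fold to each, as at −42.7 and −13.1 kb. The 9 loci found in all 12 current lists form unbroken columns, and the start of Hbb-bh2 at −12.7 kb is filled in the less strict lists and grey in the thresholded ones.

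Genes of factors known to act on the globin loci mostly had accessible promoters. Of 30 genes, which included the 3 alpha-globin genes named above and were chosen with earlier results of these data known, 27 had a region within 1 kb of a start, with a median fold of 7.11, against 45.8% of all protein-coding genes. The highest folds were those of Nfyc, a subunit of the CCAAT-binding factor NF-Y, at 15.6, of the nuclear receptor gene Nr2c2 at 12.7 and of the cohesin gene Rad21 at 12.7. The lowest were those of Tal1 at 4.11, of the GATA1 cofactor gene Zfpm1 at 4.14 and of Bcl11a, which encodes a repressor of embryonic and fetal globin genes, at 4.29. Hba-x, Nr2c1 and Nr2f2 had none, although Nr2c1 had one in the overlap list with a fold of 4.39. Lists of cell type markers were also chosen with earlier results known, so their counts are no independent check of the label. Gata1, Klf1, Tal1 and Zfpm1 are both erythroid markers and among the 30 genes above. An accessible promoter was found for 12 of 12 erythroid markers, 1 of 10 for granulocytes and monocytes and 4 of 6 for megakaryocytes. The count was 0 of 6 for B cells, 1 of 6 for T cells and 1 of 6 for stem and early progenitor cells. Of the last list, Kit, Cd34, Flt3, Mecom and Gata2 had none. Accessible markers of other cells were Prtn3, Itga2b, Gp1ba, Gp9, Vwf, Lck and Hlf, and their part in the results was not tested.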

How the data were processed

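ATAC-seq peak lists of 2 CFU-E libraries were analysed on mm10. Peaks were called by the authors on each library and on both, per the file listing, which gives 7 lists of the series and 3 of each replicate, with an older replicated list made from other files among them. No source used here names the aligner, peak caller or read filters, and read depth is unknown from peak lists. Fold enrichment is a ratio to local background computed by the authors. Each p-value is on a −log10 scale, as deposited. The score was also deposited by the authors, and in thresholded lists it follows the IDR, whose −log10 is in the ranked lists. Each list has its own scale, so values were ranked within a list. Levels are given for each library without SD.

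Records were read with Python 3.11.15 and pysam 0.24.0, sequence came from GRCm38.p6, annotation from GENCODE M21, and promoter sequences from RefSeq. Records that overlapped or touched were merged, and a region took its highest fold. Promoters spanned 1 kb to each side of a start, motifs were sought within 100 bp of a summit, and matches between lists needed 1 bp. Uniqueness was counted with 50-base stretches on both strands. Merging, overlap and motif search were tested on simulated data. Named were all 5 genes, every region of the window in every list, nearest genes, the 3 highest, 3 lowest and absent regulator promoters, and the alpha-globin window. Promoters of Hba-a1 and Hba-a2, accessible markers and the absent stem and early progenitor markers were added. The members, gene lists and motifs were chosen with earlier results of these data known. Other lists, windows and merging rules were tried as alternatives. Signal tracks were not used.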

Additional observations from a re-analysis of the deposited data

How the results depend on the processing

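The count of 11 regions became 18 in the overlap list, 35 in the older replicated list and 4 in the upper 50% of regions by fold. It was 10 and 9 in the lists of replicate 2 and replicate 1 alone. Accessible beta-globin promoters fell from 2 to 0 and regulator promoters from 27 to 12 in the upper 50% by fold. That setting keeps only regions above the median fold, and regions 4 and 6 lay below it, at the 34.7th and 30.2nd percentiles. Distal regions with a GATA word numbered 18 of 27 in the older list and 4 of 4 in the upper 50%, and those with TGANTCA 6 of 27 and 1 of 4. The strongest region by fold, at the 78.9th percentile (Wilson 95% interval 78.4 to 79.5, counting error over regions), stood at the 88.0th in the overlap list, the 96.5th in the older list and between the 61.3rd and 65.4th in the lists of 1 library. Ranked by −log10 p, the strongest was region 7, at the 85.0th percentile. The Wilson interval treats regions as independent draws and holds no spread between libraries. Lists of different length do not share a scale of ranks. The number matched in both libraries, 9 of 11, was 11 of 11 with the pseudoreplicated lists. Motif windows of 50 and 150 bp gave 7 and 9 of 9 distal regions with a GATA word, and other promoter windows changed neither promoter count. No paired analysis was possible because there is 1 group. Without read counts, depth limits what can be called absent: a locus not listed was not detectable at this depth and threshold.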

Other observations

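The older replicated list, which holds 190299 regions in all, had 35 regions in the window. Each of the 19 loci of the current lists had a counterpart there, and 14 further regions had none in the current lists. Among these 14 were a region in coding sequence of Hbb-bt with a fold of 2.82, a region in the pseudogene Hbb-bh3 with a fold of 3.71, and 3 regions in exons of Olfr64 with folds of 2.70, 4.05 and 3.71. The other 9 had folds between 2.198 and 2.70. Of these, 1 lay 4874 bp downstream and 1 lay 1254 bp upstream of the start of Hbb-bt, with folds of 2.41 and 2.36. Distances around Hbb-bs are to the nearest of its 3 annotated starts. There, 1 lay 2940 bp downstream, with a fold of 2.65, and 2 lay 255 and 479 bp upstream, with folds of 2.63 and 2.21. Another 3 lay 7.43, 17.2 and 20.3 kb upstream of Hbb-y, with folds of 2.69, 2.33 and 2.198. The last lay in an intron of Olfr66, with a fold of 2.70. At the start of Hbb-bh2 the older list gave a single region with a fold of 7.21, where the overlap list gave 4.47. Hbb-bh1 and Hbb-y still had no region at their starts, the nearest lying 2.45 and 1.49 kb away.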
